A study of Mus musculus with 10 samples.

Results

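The genes described here are 54 members of the cytoskeleton and adhesion machinery, taken as a list of gene symbols in 11 role groups from the actins to the transcription factor Srf. All 54 were found among the 21951 protein-coding genes of the GENCODE M21 annotation, Mrtfa under its older symbol Mkl1. A member was counted in a condition when a listed peak of N6-methyladenosine (m6A) had both ends in exons of that gene on its strand (mouse genome build mm10). Of the 54 genes, 41 had such a peak in at least 1 of 4 distinct peak lists and 13 had none.

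The study mapped m6A by MeRIP-seq, in which fragmented RNA is pulled down with an m6A antibody (IP) and sequenced along with fragments that were not pulled down (input). A peak is a stretch of exon with more IP than input signal. The cells were 3T3-L1, 1 clonal mouse fibroblast line that turns into fat cells after an inducing medium. Cells with the solvent dimethyl sulfoxide were sampled as preadipocytes before induction (DMSO Pre), in the phase of mitotic clonal expansion that follows it (DMSO MCE) and after differentiation (DMSO Diff), when the labels call them mature adipocytes. The lists of these DMSO cells are called Pre, MCE and Diff below. The sample records give a treatment window of day 0 to day 3 for all of these cells, DMSO Pre included. Other cells received 20 µM rhein between day 0 and day 3. Rhein is a plant anthraquinone described as an inhibitor of FTO, which demethylates m6A. These cells gave the rhein MCE and rhein Diff lists. Each of the 5 conditions had 1 IP, 1 input and 1 list, and with no replicates no difference could be tested. All 92 member peaks of the rhein MCE list had the same start, end and strand in the rhein Diff list, with scores at most 0.0272 apart. These lists were therefore counted as 1 sample, called the rhein list below, and rhein at both stages cannot be told apart. The only value per peak was a score, taken as the negative log2 of the peak's adjusted p-value, so that a high score marks a peak with strong statistical support. No read numbers were at hand, so a gene without a peak may lack methylation or only reads, and fewer cells of a kind cannot be told apart from less RNA per cell. Of the marker genes, the adipocyte genes Pparg, Cebpa, Fabp4, Adipoq, Plin1, Lpl and Cd36 and the preadipocyte gene Dlk1 had 0 peaks in every list. The preadipocyte gene Pdgfra had 5 peaks in Pre, 2 in MCE, 3 in Diff and 1 in the rhein list, and Thy1 had 0, 4, 5 and 1. Peak lists hold no RNA level, so the labelled cell types could not be checked by expression.

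As background, preadipocytes are spread fibroblasts in which actin bundles pull on integrins at focal adhesions. During adipogenesis these bundles are taken down, the actin turns cortical and the cell rounds up around its lipid. The state of actin also reaches the nucleus, because monomeric actin holds back the SRF coactivator MRTF-A. m6A is laid down on mRNA mainly at the DRACH consensus, of which GGAC is a frequent form, and it is known for its enrichment in long exons and near stop codons.

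The peaks that lead the members' results are given first. Each sequence is written 5′ to 3′ on the strand of the mRNA, from GRCm38, with every GGAC in capitals. The Ahnak peak at chr19:9002889-9003113 (plus strand, CDS, exon 5 of 5) is shown because it had the highest score of any member in Pre. The Ahnak stretch at chr19:9014089-9014388 (same exon, CDS) comes from the strongest Ahnak peak that only the rhein list held. The Rhob peak at chr12:8499261-8499460 (minus strand, CDS, single exon) had the highest member score of all, in Diff. The Mrtfa stretch at chr15:81016620-81016794 (minus strand, CDS, exon 12 of 15) was covered in all 4 full lists at similar scores.
Ahnak, highest in Pre: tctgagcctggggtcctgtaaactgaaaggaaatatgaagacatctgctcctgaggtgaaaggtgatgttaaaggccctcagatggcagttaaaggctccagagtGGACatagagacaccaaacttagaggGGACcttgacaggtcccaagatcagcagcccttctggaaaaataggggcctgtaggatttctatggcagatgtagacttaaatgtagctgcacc
Ahnak, rhein list: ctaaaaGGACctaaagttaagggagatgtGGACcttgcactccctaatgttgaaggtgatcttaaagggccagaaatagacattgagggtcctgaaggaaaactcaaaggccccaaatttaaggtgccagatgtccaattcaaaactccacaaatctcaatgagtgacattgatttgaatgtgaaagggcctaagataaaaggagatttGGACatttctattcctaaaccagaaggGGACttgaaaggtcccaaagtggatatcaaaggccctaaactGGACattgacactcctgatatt
Rhob, Diff: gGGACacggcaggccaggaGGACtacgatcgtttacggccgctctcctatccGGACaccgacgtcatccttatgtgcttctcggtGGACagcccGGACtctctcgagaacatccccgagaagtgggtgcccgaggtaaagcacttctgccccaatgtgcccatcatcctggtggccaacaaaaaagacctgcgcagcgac
Mrtfa, all 4 lists: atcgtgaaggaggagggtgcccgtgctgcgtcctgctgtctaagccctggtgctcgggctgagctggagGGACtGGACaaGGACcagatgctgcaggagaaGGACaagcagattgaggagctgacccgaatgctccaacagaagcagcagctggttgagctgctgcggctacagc

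About as many members carried a peak as did not in each list. A peak was listed for 28 of the 54 members in Pre, where 6.89% of all protein-coding genes had one, and for 31 in MCE, where 12.5% had one. In Diff 27 members had a peak against 6.69% of all genes, and in the rhein list 26 members against 7.45% (7.46% in the rhein Diff list). MCE had the most members and also the longest list, and with every list cut to its 2824 best-scoring peaks the numbers were 28, 23, 26 and 24, with MCE the lowest. The members are also long genes. Their longest coding transcripts had a median of 5118 bases, against 2683 for all genes. Among genes with a transcript of 4000 bases or more, 13.4% had a peak in Pre, 21.2% in MCE, 12.4% in Diff and 12.8% in the rhein list. Of the 32 members of that length, 19, 22, 18 and 19 had one. The 54 genes were also chosen with earlier results of these data known, so a high share may come from that choice. The part of the choice, of length and of RNA level in the members' share was not tested. Among the 3644 genes with a peak in at least 1 of the 4 lists, 41.5% had one in Pre, 75.2% in MCE, 40.3% in Diff and 44.9% in the rhein list. For the 41 members among them these shares were 68.3%, 75.6%, 65.9% and 63.4%. The set itself depends on the longest list, MCE, so these shares cannot be compared between lists.

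Member peaks numbered 87 of 2824 in Pre (3.08%), 97 of 5128 in MCE (1.89%), 76 of 2944 in Diff (2.58%) and 92 of 3069 in the rhein list (3.00%). They covered 14.1, 14.8, 11.2 and 16.9 kb of exon in the same order, so the rhein list held fewer member peaks than MCE over more sequence. The median member peak covered 125 exonic bases in each of these lists, and the range was 50 to 775. With lists of equal length MCE kept 61 member peaks, Diff 72 and the rhein list 88, next to the 87 of Pre, so that the highest count of MCE became the lowest. Ahnak and Plec together gave 26.4% of the member peaks in Pre, 28.9% in MCE, 31.6% in Diff and 47.8% in the rhein list. Without these genes the members had 64, 69, 52 and 48 peaks, and the rhein list was then the lowest.

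**Figure D1:**
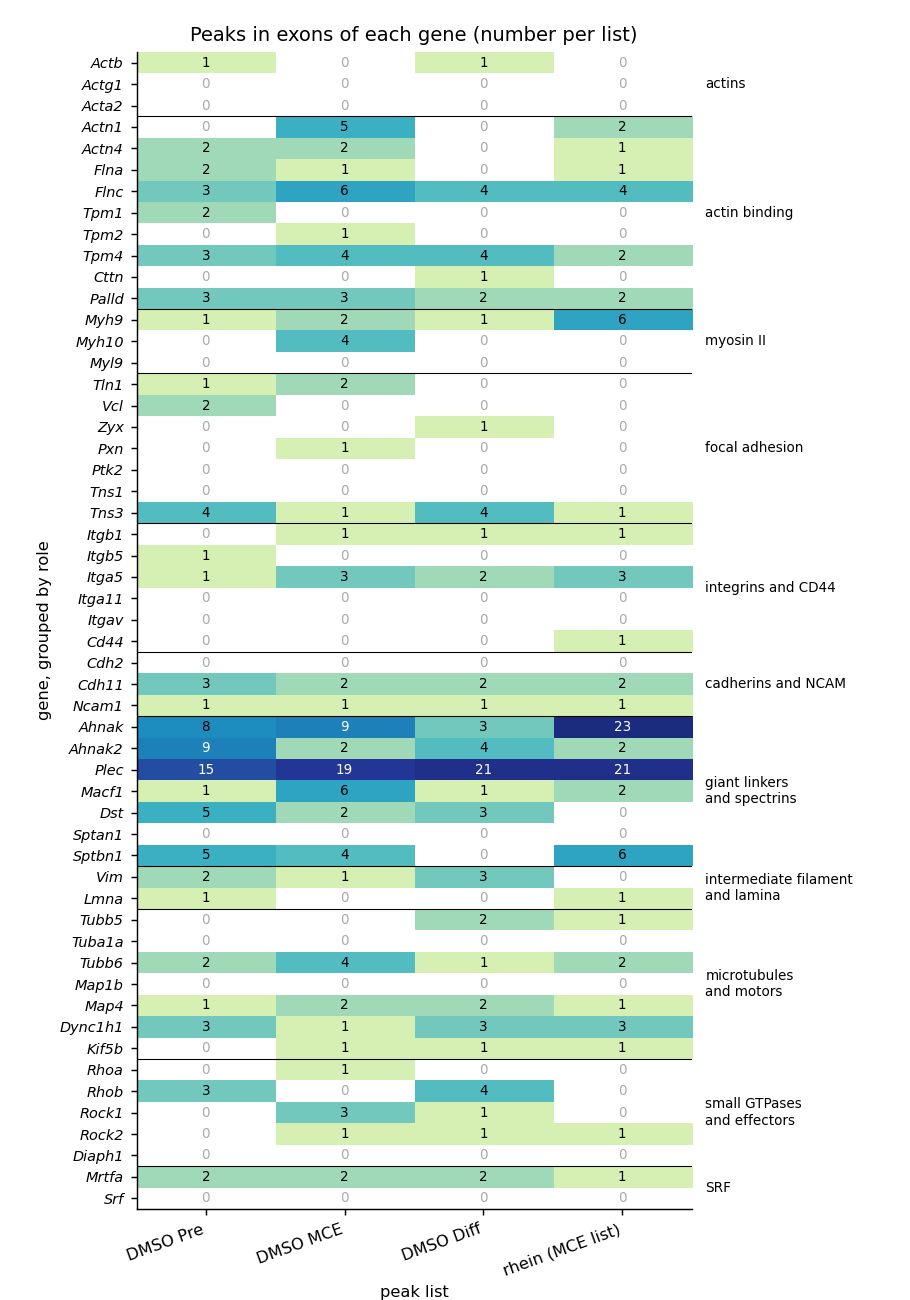
Number of listed peaks in the exons of each of the 54 genes (rows, grouped by role) in 4 peak lists (columns), each from 1 IP and 1 input. Darker cells hold more peaks. Plec had 15 to 21 peaks in every list, Ahnak went from 3 in DMSO Diff to 23 in the rhein list, and 13 genes had 0 throughout.

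Of the 41 members with any peak, 16 had one in all 4 lists (39.0%), whereas 15.5% of the 3644 genes with any peak did. With lists of equal length 13 of 36 members did (36.1%), beside 16.6% of 2922 genes, and Myh9, Tns3 and Ncam1 dropped out. The choice of the genes with earlier results known bears on these shares as well. The 16 in the full lists were Flnc, Tpm4, Palld, Myh9, Tns3, Itga5, Cdh11, Ncam1, Ahnak, Ahnak2, Plec, Macf1, Tubb6, Map4, Dync1h1 and Mrtfa. A further 8 had a peak in 3 lists, 7 in 2 lists and 10 in 1 list. With protein-coding transcripts only, Myh9 had 0 peaks in Diff and would not be among the 16. The 13 members without a listed peak were Actg1, Acta2, Myl9, Ptk2, Tns1, Itga11, Itgav, Cdh2, Sptan1, Tuba1a, Map1b, Diaph1 and Srf. Reads of low mapping quality had been removed, which takes away reads shared by near-identical copies, so the actin and tubulin genes, which have paralogs and processed pseudogenes, are uncertain here.

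The giant linker proteins, which tie filaments to one another, to the membrane and to junctions, held more member peaks than any other role group in each list. The 7 genes of this group had 43 peaks in Pre, 42 in MCE, 32 in Diff and 54 in the rhein list. Of these, 23, 28, 24 and 44 were in Ahnak and Plec. The 9 actin-binding genes had 15, 22, 11 and 12, so without Ahnak and Plec the giant linkers led in Pre only. These counts were not set against transcript length. Plec encodes plectin, which links intermediate filaments to actin and microtubules. It had 15, 19, 21 and 21 peaks. No protein-coding gene had more in MCE, and 1 gene had more in each of the other lists. The peaks fell mostly into exon 32 (3381 bases) and the last exon (7412 bases) of the 33-exon transcript. In MCE 6 lay in exon 32 and 11 in exon 33, and in the rhein list 6 and 12.

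The scores of Plec peaks set MCE and rhein apart from the other lists. The median Plec score was 9.04 in Pre, 17.0 in MCE, 7.61 in Diff and 12.5 in the rhein list. The highest Plec score was 24.0 in Pre (rank 148), 94.5 in MCE (rank 4), 17.2 in Diff (rank 292) and 76.7 in the rhein list (rank 29). The gene was thus called throughout, with its highest scores in MCE and the rhein list. With 1 library pair per condition this difference was not tested, and read depth and RNA level of Plec in each pair are unknown. Exon 32 held nearly all strong Plec sites of MCE and the rhein list. In it or in exon 33, 5 Plec peaks in MCE and 5 in the rhein list passed a score of 33.2, which corresponds to an adjusted p-value of 1e-10, and 0 did in Pre and Diff. All but 1 of these peaks lay in exon 32, the other being a MCE peak in exon 33 with a score of 35.4. In Pre and Diff the highest Plec scores, 24.0 and 17.2, were in exon 33. Sites of Plec recurred as well. Of its 23 merged sites 8 were present in all 4 lists, and 17 of its 19 MCE peaks touched a peak of the rhein list. Here 1 shared base was enough, and the rhein peaks covered 40.9% of the longest Plec transcript. Those centred in exon 32 (3381 bases) covered 2525 bases and those in exon 33 (7412 bases) 3575. The part of this coverage in the overlap was not tested.

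Ahnak, a very large scaffold protein beneath the plasma membrane, behaved differently. Its coding sequence sits almost whole in a last exon of 17498 bases, and all of its peaks were centred there. It had 8 peaks in Pre, 9 in MCE, 3 in Diff and 23 in the rhein list, where no other protein-coding gene had more. The bases under Ahnak peaks came to 1150, 1350, 300 and 3625. In Diff the scores of the 3 peaks were 8.67 to 12.8, whereas the highest Ahnak score was 59.7 in Pre, 57 in MCE and 64.2 in the rhein list. The peak shown above, with 2 GGAC, was listed at 59.7 in Pre (rank 26), 41.6 in MCE (rank 68) and 64.2 in the rhein list (rank 47), and Diff had no peak over it.

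Of the 23 Ahnak peaks in the rhein list, 6 touched a peak of a DMSO list and 17 touched none. The 17 had scores of 7.01 to 49.1 with a median of 14.2, and 4 of them were in the best-scoring 10% of the rhein list. The strongest covered 500 bases with 6 GGAC (rank 83), and the stretch printed above holds 5 of these. The other direction was smaller, as 3 of the 9 Ahnak peaks in MCE touched no rhein peak. Only 1 Ahnak site was present in all 4 lists. With 1 library pair per condition, and with the rhein list standing for both stages, this difference was not tested, and read depth and RNA level of Ahnak in each pair are unknown.

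**Figure D2:**
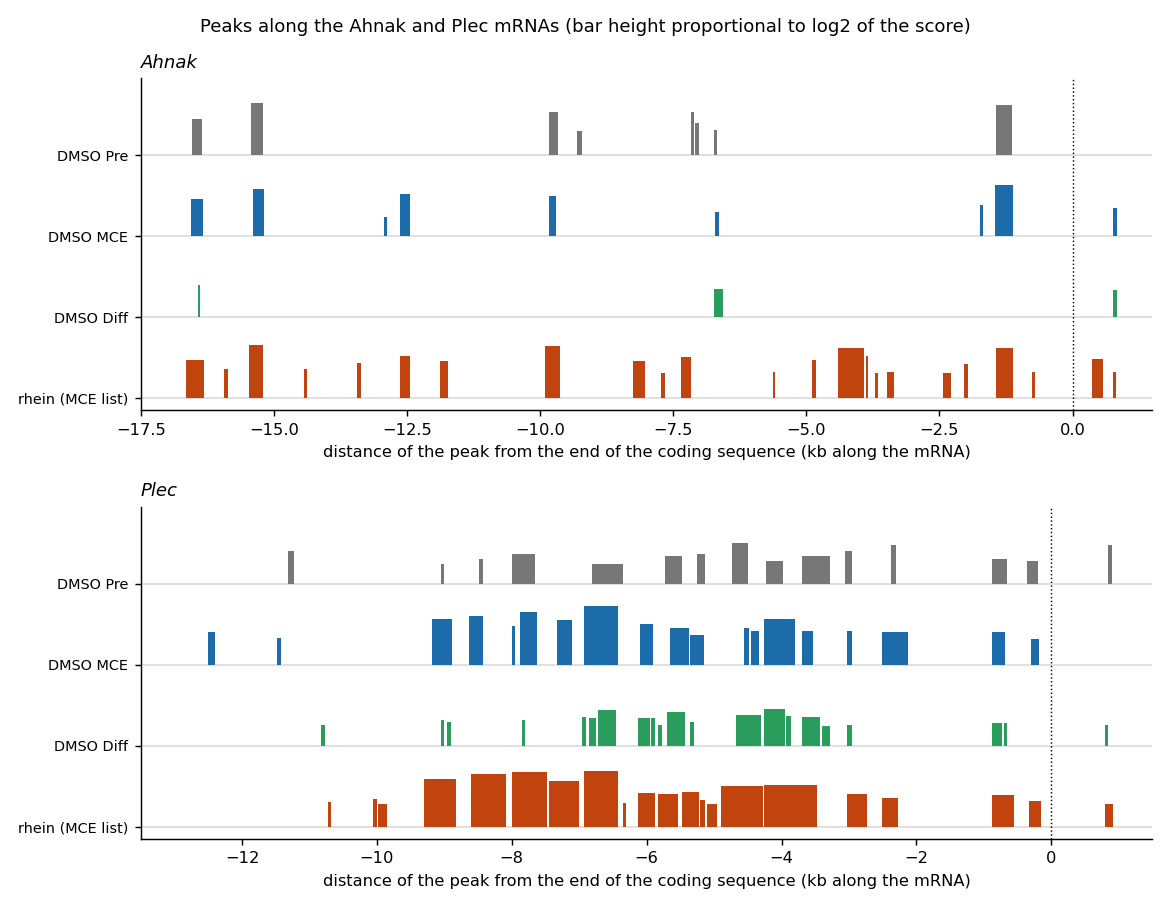
Peaks along the Ahnak and Plec mRNAs in 4 lists. The horizontal axis is the distance from the end of the coding sequence in kb along the mRNA (dotted line, 0), each bar is 1 peak drawn at its exonic length with its midpoint in place, and bar height is proportional to log2 of the score. The rhein list fills Ahnak with 23 peaks where DMSO Diff has 3, while Plec is covered in every list.

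Ahnak2, a relative of Ahnak, had most of its peaks before induction. It had 9 peaks in Pre, 2 in MCE, 4 in Diff and 2 in the rhein list, and its scores stayed between 4.72 and 17.7. They covered 2150 bases in Pre and 475 in the rhein list, and they could be placed on fragmentary transcripts of the gene only. The spectraplakins Macf1 and Dst, which crosslink actin and microtubules, differed from each other. Macf1 had 1, 6, 1 and 2 peaks with scores of 5.06 to 13.5, or 1, 2, 1 and 2 with lists of equal length, and 7 of these 10 were centred in a 4791-base first exon of a short isoform. Dst had 5, 2, 3 and 0 peaks with scores of 4.79 to 10.6, or 5, 1, 2 and 0 with lists of equal length, and 6 of these 10 were centred in its 5292-base exon 36. Sptbn1, the beta-II spectrin of the membrane skeleton, had 5 peaks in Pre, 4 in MCE, 0 in Diff and 6 in the rhein list, with scores of 5.17 to 10.8. Its exon 15 (757 bases) held 2 of these in Pre, 1 in MCE and 4 in the rhein list. The MCE peak with a score of 5.17 could be placed only on a non-coding transcript. The spectrin partner Sptan1 had none.

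Among the small GTPases and their effectors, which drive the assembly of stress fibres, Rhob gave the strongest member peak of all. Rhob encodes a small GTPase and has a single exon of 2349 bases. It had 3 peaks in Pre and 4 in Diff, and 0 in MCE and in the rhein list. The CDS peak printed above, with 5 GGAC in 200 bases, had a score of 148 in Diff (rank 6). Within it Pre listed a peak of 75 bases with a score of 8.11 (rank 1317). In Diff a second peak across the stop codon had a score of 22.3 (rank 193), and both lists had peaks further down the 3′ UTR, with a score of 5.16 in Diff and scores of 6.97 and 8.16 in Pre. The other genes of the group had weaker peaks. The kinase Rock1 had 3 in MCE and 1 in Diff, with scores of 6.40 to 9.20. Its relative Rock2 had 1 overlapping peak in MCE (score 7.96), Diff (11.7) and the rhein list (5.80). Rhoa had 1 peak in MCE alone (7.38), and the formin Diaph1 had none.

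Mrtfa, the actin-sensing coactivator of Srf, kept 1 site in every full list. Its internal CDS peak, printed above with 4 GGAC, had scores of 8.83 in Pre, 6.90 in MCE, 8.14 in Diff and 6.41 in the rhein list. In MCE this peak ranked 2961 and fell away with lists of equal length, which left 2, 1, 2 and 1 Mrtfa peaks. A second peak at the end of the coding sequence, at chr15:81013331-81013530 in Pre and Diff, was listed at 8.13, 8.49 and 8.98 in the DMSO lists. It was absent from the rhein list. Srf itself had no peak.

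**Figure D3:**
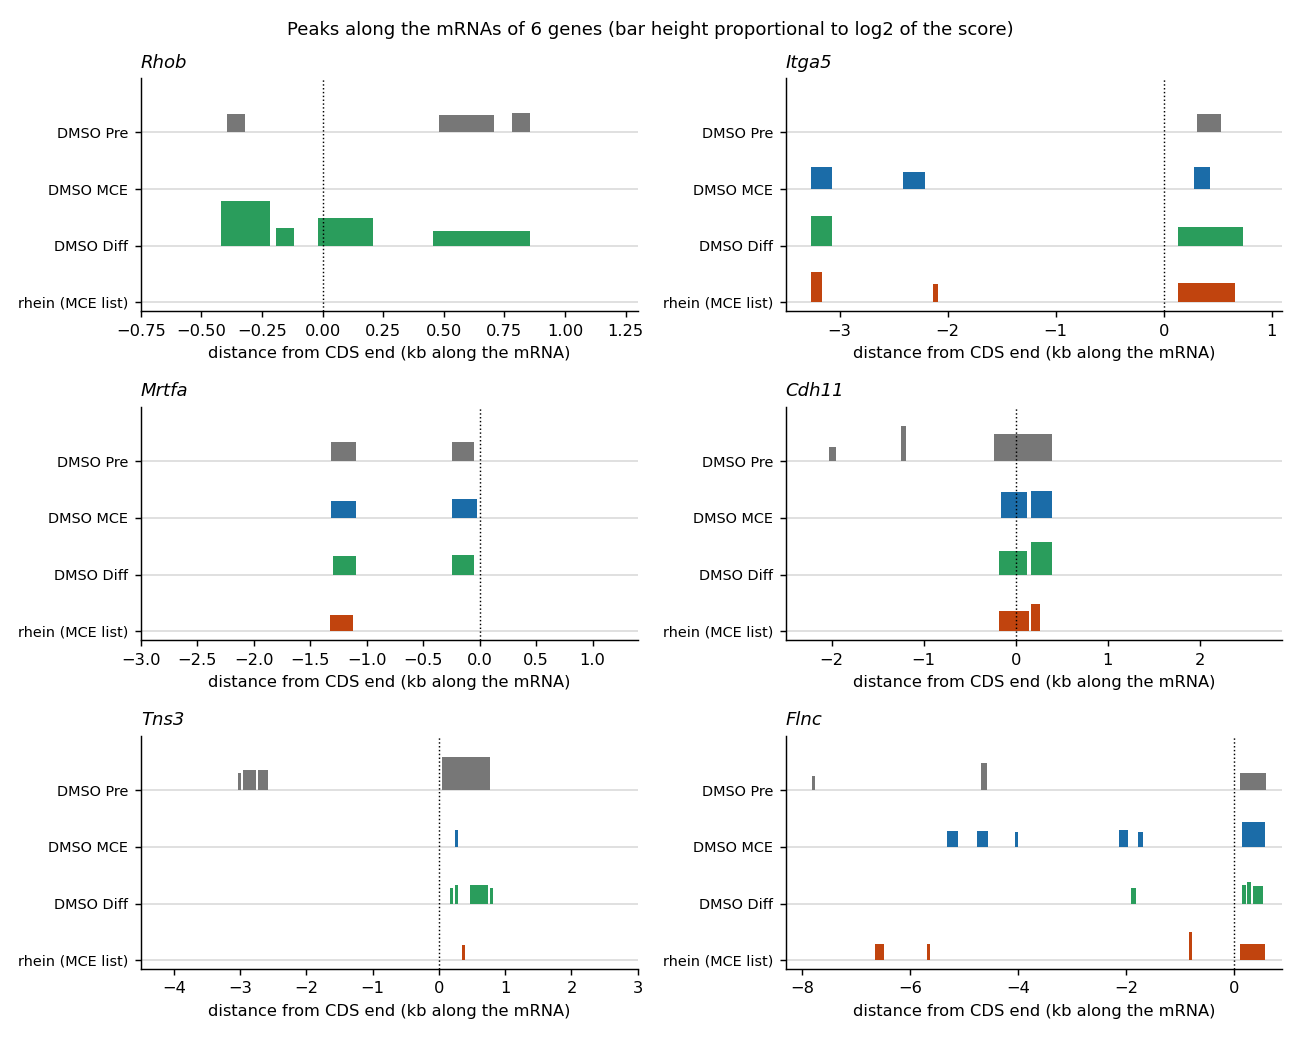
Peaks along the mRNAs of Rhob, Mrtfa, Tns3, Itga5, Cdh11 and Flnc in 4 lists. The horizontal axis is the distance from the end of the coding sequence (CDS end, dotted line) in kb along the mRNA, each bar is 1 peak at its exonic length, and bar height is proportional to log2 of the score. Rhob is empty in DMSO MCE and the rhein list, Mrtfa keeps the same internal peak in all 4 lists, and Itga5 and Flnc keep a 3′ UTR peak.

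Integrins, the receptors that hold the cell to its matrix, were represented mainly by Itga5, the alpha chain of the fibronectin receptor. Itga5 had 1, 3, 2 and 3 peaks. A 3′ UTR site was listed at 7.98 in Pre, 12.3 in MCE, 8.2 in Diff and 8.76 in the rhein list, and its peak covered 225, 150, 600 and 525 bases. A 5′ UTR site in exon 1 was absent from Pre and listed at 12 in MCE, 28.5 in Diff (rank 123) and 28.7 in the rhein list (rank 185). Its partner Itgb1 had 1 peak in each list but Pre, with scores of 7.18, 8.65 and 8.85 at 3 different places. Itgb5 had 1 peak in Pre (5.99), and the hyaluronan receptor Cd44 had 1 in the rhein list (5.22). The GGAC sites common to the lists are shown with 10 bases on each side, at chr15:103366534-103366557 and chr15:103344905-103344928 (both minus strand) for Itga5 and at chr6:29461578-29461601 (plus strand) for the 3′ UTR of Flnc.
Itga5, 5′ UTR, 3 lists: ggtggccccaGGACagggaagagc
Itga5, 3′ UTR, all 4 lists: catgccaacaGGACttcccatctg
Flnc, 3′ UTR, all 4 lists: ccgtgcctaaGGACtctgtcaggc

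Among the cell-cell adhesion genes Cdh11, a cadherin of mesenchymal cells, had the most peaks. It had 3 peaks in Pre and 2 in each other list. Its stop codon region was covered in every list, with highest scores there of 20.3 in Pre, 21.1 in MCE, 37.6 in Diff (rank 87) and 20.3 in the rhein list. A 50-base CDS peak in exon 8 was listed in Pre alone, with a score of 48.6 (rank 40). Ncam1, a neural cell adhesion molecule, had 1 peak in each list with a common edge in its 3′ UTR and scores of 14.3, 5.58, 10.8 and 7.29. Cdh2 had none.

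Focal adhesion proteins, which couple integrins to actin, were led by Tns3. This tensin had 4 peaks in Pre, 1 in MCE, 4 in Diff and 1 in the rhein list. In Pre a 725-base peak with 6 GGAC followed the stop codon with a score of 40.3 (rank 52), and 3 further peaks lay in the CDS of exon 17. The other lists had only 3′ UTR peaks of 50 to 275 bases with scores of 5.51 to 7.76, and no base was common to all 4. Talin (Tln1) had 1 peak in Pre (5.98) and 2 in MCE (6.44 and 8.72). Vinculin (Vcl) had 2 peaks in Pre (9.57 and 13.9), paxillin (Pxn) 1 in MCE (5.33) and zyxin (Zyx) 1 in Diff (4.79). Of the 7 genes of this group, 3 had a peak in Pre, 3 in MCE, 2 in Diff and 1 in the rhein list. With lists of equal length these were 3, 1, 1 and 0, with Tns3 absent from MCE and the rhein list. The kinase Ptk2 and the tensin Tns1 had none.

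Each of the 9 actin-binding proteins had a peak somewhere, 6 in Pre, 7 in MCE, 4 in Diff and 6 in the rhein list. The filamin Flnc, an actin crosslinker, had 3, 6, 4 and 4 peaks. Its 3′ UTR site recurred in all 4 lists, with highest scores of 6.49, 15.3, 11.3 and 6.15, and MCE had 5 further CDS peaks with scores of 5.14 to 6.44. All 5 fell away with lists of equal length, which left 3, 1, 4 and 4 Flnc peaks. A CDS peak in exon 21 had a score of 21.4 in Pre (rank 190), and 1 in exon 44 had 22.2 in the rhein list alone (rank 273). Tpm4, a tropomyosin that coats actin filaments, had 3, 4, 4 and 2 peaks, mostly around and after its stop codon, with highest scores of 10.4, 16.6, 18.3 and 16.6. A further peak in MCE (27.1, rank 126) and another in the rhein list (45.9, rank 93) had an end outside the annotated exons and were not counted, so these highest scores leave out the strongest entries at the gene. Palld, a scaffold of actin bundles, had 3, 3, 2 and 2 peaks, of which MCE kept 1 with lists of equal length, and all lists had 1 or more in its 3′ UTR, with scores of 4.85 to 11.5.

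The alpha-actinins bundle actin and differed between lists. Actn1 had 5 peaks in MCE (5.97 to 9.48), of which 3 were kept with lists of equal length, 2 in the rhein list (6.72 and 8.01) and 0 in Pre and Diff. The rhein peak at 8.01 could be placed only on a transcript annotated as retaining an intron. Same-strand Actn1 entries in Pre (rank 1989) and MCE (rank 733) did not meet the placement rule and were not counted. The MCE entry ranked above all counted Actn1 peaks of that list. Actn4 had 2, 2, 0 and 1 peaks. Its 5′ UTR site was listed at 7.24 in Pre and 14.2 in MCE and not elsewhere. Flna had a peak next to its stop codon at 10.9 in Pre and 10.3 in MCE, a second Pre peak (4.72), 1 CDS peak in the rhein list (6.82) and none in Diff. Tpm1 had 2 peaks in Pre (5.87 and 6.76), Tpm2 had 1 in MCE (6.46) and cortactin (Cttn) 1 in Diff (6.23). Actb, the cytoplasmic beta-actin, had a 3′ UTR peak just after its stop codon at 28.6 in Pre (rank 100) and 9.75 in Diff (rank 963), without GGAC in either.

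Myosin II heavy chains, the motors of contraction, had peaks with scores of at most 11.6. Myh9 had 1 peak in Pre (10.3), 2 in MCE (5.61 and 6.90), 1 in Diff (8.04) and 6 in the rhein list (6.54 to 11.6). The Diff peak could be placed only on a transcript annotated as retaining an intron. With protein-coding transcripts only, Myh9 had 0 peaks in Diff. None of the 10 Myh9 sites occurred in a second list. Myh10 had 4 peaks in MCE (4.83 to 6.17) and 0 elsewhere. Myh9 had 1, 0, 1 and 6 peaks with lists of equal length, and Myh10 had none.

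The 7 microtubule and motor genes had 6, 8, 9 and 8 peaks. Tubb6, a beta-tubulin, had 2, 4, 1 and 2 peaks, with scores of 5.17 to 14.2 that were highest in MCE. Tubb5 had 2 peaks in Diff and 1 in the rhein list, with its 3′ UTR site at 12.7 and 16.9. A same-strand Tubb5 entry in Pre (rank 2704) was left out by the placement rule. Map4, which binds along microtubules, had 1, 2, 2 and 1 peaks (5.58 to 10.8). Dync1h1, the dynein heavy chain, had 3, 1, 3 and 3 (4.32 to 7.80), and 8 of its 9 sites were listed once. The kinesin Kif5b had 1 peak in each list but Pre (6.0 to 8.8). Its Diff peak (8.8) could be placed only on a non-coding transcript. A stronger same-strand Kif5b entry in MCE (rank 208) did not meet the placement rule and was not counted. Vim, the intermediate filament of mesenchymal cells, had 2 peaks in Pre, 1 in MCE, 3 in Diff and 0 in the rhein list. Its strongest site, at 18.9 in Pre and 28.4 in Diff (rank 125), could be placed only on a transcript annotated as retaining an intron. No coding transcript had both ends of these peaks in exons, and a part of them may still lie in the coding mRNA. Lamin A/C (Lmna) had 1 peak in Pre (4.62) and 1 in the rhein list (8.63) at different places.

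The median score of member peaks was 8.11 in Pre, 7.80 in MCE, 8.0 in Diff and 8.69 in the rhein list, and that of all peaks 7.82, 7.18, 8.27 and 7.96. Their median rank, as a percentage of the list from the highest score down, was 46.6% in Pre, 37.4% in MCE, 53.7% in Diff and 41.3% in the rhein list. These percentages, and the counts in the best-scoring 10%, depend on the length of the list, so the lists cannot be ranked by them. Among the best-scoring 10% of the list were 14, 27, 7 and 18 member peaks, or 16.1%, 27.8%, 9.21% and 19.6% of them. Of the 27 in MCE, 13 were in Plec and 5 in Ahnak. A score above 33.2 was reached by 4 member peaks in Pre, 7 in MCE, 2 in Diff and 9 in the rhein list. These shares of 4.60%, 7.22%, 2.63% and 9.78% stand beside 2.41%, 1.87%, 3.46% and 4.92% of all peaks. In MCE and the rhein list these peaks were in Plec and Ahnak only, in Pre in Ahnak, Cdh11 and Tns3, and in Diff in Rhob and Cdh11.

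**Figure D4:**
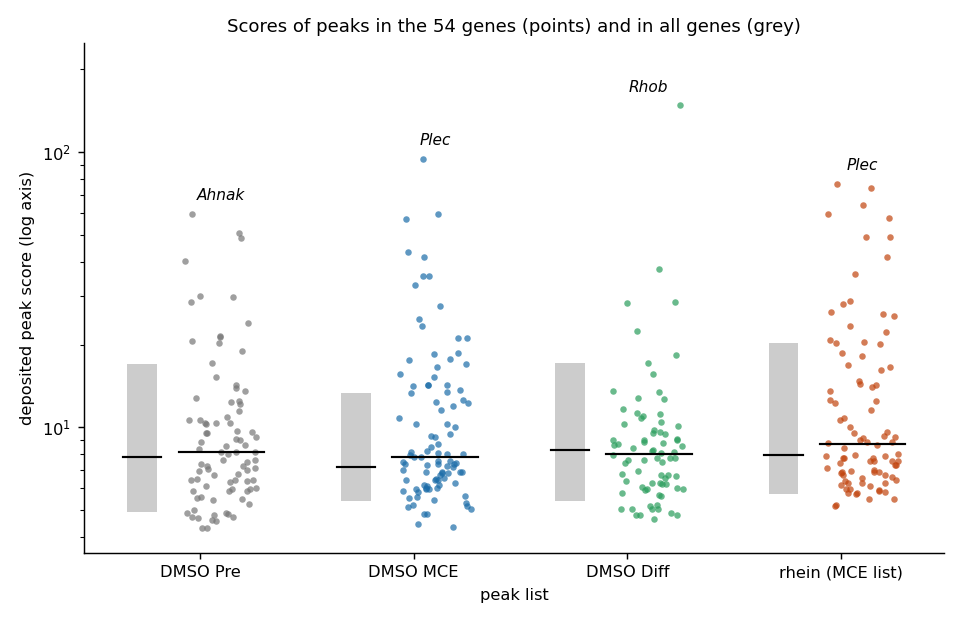
Deposited score (log axis) of every peak in the 54 genes (points, 1 per peak, spread sideways for sight) in 4 lists, with the median as a black line. The grey bar beside them runs from the 10th to the 90th percentile of all peaks of the list, with its median. The member of highest score is named in each list, and Rhob in DMSO Diff stands highest at 148.

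Member peaks lay more often in coding sequence than peaks at large. On coding transcripts the CDS held 76.5% of the member peaks in Pre (95% Wilson interval 66.4 to 84.2), 78.1% in MCE (68.9 to 85.2), 63.9% in Diff (52.4 to 74.0) and 80.2% in the rhein list (70.9 to 87.1). Over all placed peaks the shares were 55.4%, 54.3%, 55.1% and 52.6%, of which that of Diff lay inside the members' interval. These intervals cover counting error over peaks only, and peaks of 1 gene are not independent. The CDS also makes up 72.5% of the members' longest coding transcripts, so the members offer much of it. Without Ahnak and Plec the CDS share was 50.0% in Diff and 68.1% in the rhein list. The 3′ UTR held 20.0%, 15.6%, 33.3% and 16.5% of the member peaks and 39.1%, 38.4%, 38.9% and 39.8% of all peaks. Fewer member peaks than peaks at large lay near the stop codon, with 10.6%, 12.5%, 16.7% and 4.40% of member peaks centred within 200 bases of the CDS end, against 22%, 25%, 23.9% and 23.0% of all peaks.

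Long exons held most member peaks. Exons over 400 bases contained 77.0% of them in Pre, 68.0% in MCE, 86.8% in Diff and 78.3% in the rhein list, where 75.1%, 77.2%, 70.7% and 71.7% of all placed peaks lay in such exons. Exons of that length make up 49.6% of the members' sequence. GGAC on the transcript strand was found in 60.9% of the member peaks in Pre (50.4 to 70.5), 58.8% in MCE (48.8 to 68.0), 48.7% in Diff (37.8 to 59.7) and 55.4% in the rhein list (45.3 to 65.2). All placed peaks gave 53.2%, 52.9%, 48.2% and 52.2%, which is inside each of these intervals. Member peaks held 8.60, 7.43, 7.14 and 6.34 GGAC per kb, all placed peaks 7.05, 7.10, 6.24 and 6.57, and the members' longest coding transcripts 4.74 per kb.

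**Figure D5:**
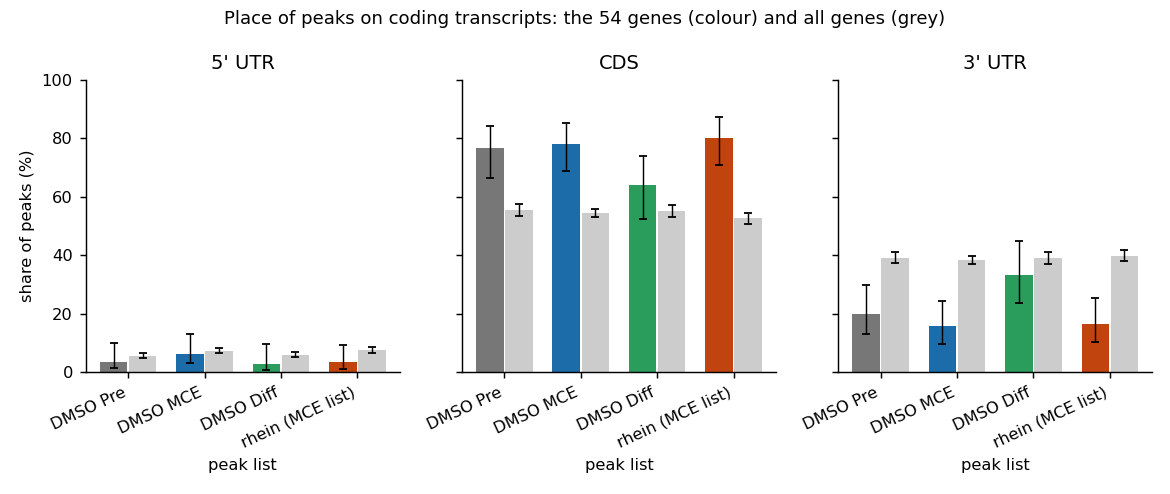
Share of peaks (%) centred in the 5′ UTR, CDS and 3′ UTR of coding transcripts, for the 54 genes (coloured bars) and for all genes (grey bars) in 4 lists. Error bars are 95% Wilson intervals. The coloured CDS bars reach 63.9% to 80.2% and the grey ones 52.6% to 55.4%.

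The comparison of stages and of rhein with DMSO asked whether the same members and the same sites were called. Of the 28 members with a peak in Pre, 22 also had one in MCE (78.6%, and 71.0% of the 31 in MCE), beside 72.0% and 39.7% for all genes with a peak. The 6 that were absent from MCE were Actb, Tpm1, Vcl, Itgb5, Lmna and Rhob, and the 9 that appeared were Actn1, Tpm2, Myh10, Pxn, Itgb1, Kif5b, Rhoa, Rock1 and Rock2. Actn1 also had an entry in Pre that was left out by the placement rule. From MCE to Diff 22 members stayed, 9 were no longer listed and 5 were added (Actb, Cttn, Zyx, Tubb5 and Rhob). The 22 were 71.0% of the MCE and 81.5% of the Diff members, beside 40.2% and 75.1% for all genes. Between MCE and the rhein list 23 members were common. These were 74.2% of the MCE members and 88.5% of the rhein members, next to 45.5% and 76.3% for all genes with a peak. Tpm2, Myh10, Tln1, Pxn, Dst, Vim, Rhoa and Rock1 were in MCE only, and Cd44, Lmna and Tubb5 in the rhein list only. Against Diff, the rhein list shared 20 members, lacked 7 and had 6 that Diff did not. The 20 were 74.1% of the Diff and 76.9% of the rhein members, beside 59.5% and 53.3% for all genes. With lists of equal length the order turned, as 10 members were then in Pre and not in MCE against 5 the other way, and 4 in MCE and not in the rhein list against 5. These comparisons share lists and are not independent.

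Fewer sites than genes were common to the lists. Of the Pre member peaks 44.8% (34.8 to 55.3) shared at least 1 exonic base with a MCE peak, and the same 44.8% held for all Pre peaks. For Diff peaks in MCE the share was 52.6% (41.6 to 63.5), beside 45.8% of all peaks. Of the rhein member peaks 45.7% (35.9 to 55.8) were shared with MCE, beside 53.3% of all rhein peaks, and 30.4% (22 to 40.5) with Diff, beside 37.6% of all. In the other direction 43.3% (33.9 to 53.2) of the MCE member peaks were found in the rhein list, beside 32.0% of all. Without Ahnak and Plec this last share was 27.5%. When overlapping peaks of the 4 lists were merged, the members had 206 sites. Of these, 148 were in 1 list (71.8%) and 18 in all 4 (8.74%), beside 67.7% and 6.47% of all 8701 merged sites. The 148 sites comprised 38 in Pre, 44 in MCE, 21 in Diff and 45 in the rhein list, and 17 of the last were in Ahnak. The 18 sites lay in 11 genes, 8 of them in Plec. Merging joins peaks in a chain, and the Tns3 and Tpm4 sites among the 18 held no base common to all 4 lists. The Tpm4 site also joined entries that were not counted as member peaks.

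The gene symbol printed in the lists often named a neighbour. Of the member peaks 18.4% in Pre, 14.4% in MCE, 19.7% in Diff and 10.9% in the rhein list were listed under another symbol, against 28.4%, 27%, 28.9% and 28.3% of all placed peaks. All 17 Ahnak2 peaks over the 4 lists stood under Pld4 and all 4 Ncam1 peaks under Gm11149. Likewise 10 of 13 Tpm4 peaks were listed as Rab8a and 10 of 17 Flnc peaks as Atp6v1f. Conversely, 3 entries in Pre, 15 in MCE, 3 in Diff and 5 in the rhein list bore a member's symbol but did not lie in exons of that gene on its strand. Cd44 was one of these in every list, through a peak at chr2:102897960-102898059 on the opposite strand in Gm23731. By symbol Cd44 would thus count as methylated in all 4 lists, whereas its own exons held a peak only in the rhein list. Tpm4 entries in MCE and the rhein list also included peaks with an end outside its annotated exons. Left out by the same rule, on the gene's own strand, were Actn1 and Tubb5 entries in Pre. In MCE the same held for entries of Actn1, Kif5b, Rhoa and Sptbn1. With any exonic base counted, 30 members had a peak in Pre instead of 28. With protein-coding transcripts only, 25 members had a peak in Diff instead of 27.

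A second list of 101 cytoskeleton and adhesion genes, of which 99 matched the annotation, had a smaller share of genes with a peak. It had 28 in Pre (28.3%), 42 in MCE (42.4%), 22 in Diff (22.2%) and 25 in the rhein list (25.3%), from genes with a median transcript of 4020 bases. MCE had the most genes and the longest list. The genes with the most peaks, named after their values were seen, were Synpo with 1, 10, 1 and 6 peaks and Septin9 with 3, 5, 3 and 6. Synpo encodes an actin-associated protein and Septin9 a septin of the cell cortex.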

How the data were processed

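MeRIP-seq of 3T3-L1 cells was analysed from the 5 deposited peak lists, 1 per condition, each made by the authors from 1 IP and 1 input library. According to the submitters' processing notes and the study's methods, reads were trimmed (Trim Galore 0.6.5), aligned to mm10 (HISAT2 2.1.0), cleared of duplicates (Picard 2.23.5) and of low mapping quality (SAMtools 1.9), called with exomePeak2 (version not given in the sources used here) and annotated with ChIPseeker 1.26. The score deposited by the authors stands under a fold change header but is never negative. Its lowest value was 4.32 in MCE and the rhein list, which is about minus log2 of 0.05. In Pre (4.19) and Diff (4.27) the lowest value was slightly below that limit. The column was therefore used as a score of the adjusted p-value and not as a fold change, which is an assumption. The lists hold no read counts, so depth is unknown and intervals cover counting error over peaks only.

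Peaks were placed with Python 3.11.15, pandas 2.3.3, NumPy 2.4.6 and pysam 0.24.0 on GENCODE M21 (GRCm38), with both ends in exons of a transcript of the listed strand and protein-coding transcripts first. From 96.5% to 97.6% of each DMSO list and 97.0% of the rhein list could be placed. Of 1000 simulated peaks drawn on transcripts of the 54 genes, 1000 were mapped back to their position and gene. Each position was read on the transcript it was drawn from, and only transcripts of these genes were searched. This checked the conversion of coordinates and not the choice between transcripts or overlapping genes. Place was taken at the peak's midpoint, and GGAC was searched on the transcript strand only, over the exonic bases of each peak. Sequences were read from the RefSeq copy of GRCm38.p6. Peaks with at least 1 exonic base in common were called shared. With 1 list per condition there was no test. The 54 genes, the 101 other genes and the marker genes were chosen with earlier results of these data known. Values were given in full for the 5 members with the most peaks, the member of highest score in each list and members present in every list. A member present in 1 list would have been added if its peak was in the best-scoring 10%, which none was. Alternatives were another placement rule, the listed symbol and part, a score above 33.2, lists of equal length, a larger overlap, DRACH and a fixed window. Placement on protein-coding transcripts only and leaving out Ahnak and Plec were added after the data were seen. Figures were drawn with Matplotlib 3.10.9.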

Additional observations from a re-analysis of the deposited data

Results flagged for a closer look

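The difference between rhein and DMSO in the number of member peaks had opposite signs at the stages. The rhein list had 92 member peaks and MCE 97, a difference of -5. Against the 76 of Diff the difference was 16. These opposite signs were not tested, and the same rhein peaks enter both. With lists of equal length the differences were 27 and 16, and without Ahnak and Plec they were -21 and -4, so that the signs depend on list length and on these genes.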

How the results depend on the processing

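With 1 list per condition no library could be left out. No paired analysis was possible because each condition had 1 IP, 1 input and 1 list, and the values come from no test. With a score above 33.2, 3 members kept a peak in Pre and 2 in each of MCE, Diff and the rhein list, with 4, 7, 2 and 9 peaks, so the counts of members rest on weaker peaks. With lists of equal length MCE had 61 member peaks, and the rhein list had 27 more instead of 5 fewer. Then 4 members had a peak in MCE and not in the rhein list and 5 the reverse, 10 in Pre and not in MCE and 5 the reverse, and 9 in Diff and not in MCE, so that the order of the gains and losses between these lists turned with list length. DRACH was found in 86.2% of the member peaks in Pre, 86.6% in MCE, 78.9% in Diff and 90.2% in the rhein list. Without Ahnak and Plec the rhein list had 48 member peaks, the CDS share was 50.0% in Diff and 68.1% in the rhein list, and the 3′ UTR share was 45.8% and 25.5%. The share of Pre peaks found in MCE was then 32.8%, that of Diff peaks 38.5% and that of MCE peaks in the rhein list 27.5%, and the difference of rhein and Diff in member peaks was -4 instead of 16. Of 239 values under an alternative, 176 stayed within the range set for no change and 63 moved. That range was wide. The fall from 31 to 23 members in MCE with lists of equal length stayed within it. So did the fall from 76 to 52 member peaks in Diff without Ahnak and Plec.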

Other observations

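Among the 99 other cytoskeleton and adhesion genes, 53 had a peak in at least 1 list. Besides Synpo and Septin9, Map1a, a microtubule-associated protein of neurons, had 4, 5, 3 and 2 peaks in Pre, MCE, Diff and the rhein list. It was named after its values were seen, and no difference was tested.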
